A study of Arabidopsis thaliana with 6 samples.

Results

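PUCHI, LBD16 and LBD29 encode transcription factors of lateral root initiation in Arabidopsis thaliana. Each was read by 1 probe set, a group of short oligonucleotides designed to 1 transcript, so the 3 genes were 3 of the 22746 probe sets on the array that are not controls, and 3 of 13286 loci named here. They were 249992_at for PUCHI (AT5G18560), 265856_at for LBD16 (AT2G42430) and 251565_at for LBD29 (AT3G58190). They were chosen by name, and all 3 passed the filter on low values that 13647 probe sets passed. The cells were xylem pole pericycle cells of line J0121, a GAL4-GFP marker line, sorted by fluorescence from root tissue. All seedlings had been kept on 10 µM NPA, which blocks auxin transport, until 72 HAG (read here as hours after germination). The first group was taken then, without NAA, and is called 0 h. The other groups were moved to 10 µM NAA, a synthetic auxin, for 2 h (74 HAG) or 6 h (78 HAG). They are also recorded here with 10 µM NPA, and whether it was present during NAA was not settled. Each group had 2 arrays, called biological replicates in the labels. No arrays of seedlings kept on NPA alone to the later ages were used here. Time on NAA therefore cannot be told apart from age, or from a removal of NPA if there was one. The series sets the groups at an arrest before DNA replication (0 h), at auxin signalling and entry into S phase (2 h) and near the first asymmetric division (6 h).

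Lateral roots start from pericycle cells beside the xylem, which respond to auxin, divide asymmetrically and build a primordium. Auxin acts there by removing Aux/IAA repressors from the response factors ARF7 and ARF19. LBD16 and LBD29, members of the plant-specific LBD family, are known as direct targets of these factors. LBD16 is needed for the asymmetry of the first division of the founder cells. PUCHI, an AP2/ERF-type factor, is known from mutants whose primordia divide in excess and out of pattern, and acts in the early primordium.

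All 3 genes rose by 2 h, and their mean levels at 6 h then lay above, below and near those at 2 h. PUCHI rose 23.6-fold by 2 h and was 81.7-fold above 0 h at 6 h. LBD16 rose 4.10-fold by 2 h, and at 6 h its mean lay between its levels at 0 h and 2 h, with neither gap passing the test. LBD29 rose 4.24-fold by 2 h and had a mean within 3% of that at 6 h. Levels were MAS5 signals, which are linear intensities scaled by the authors to a common array mean. Tests were made with limma on log2(signal + 5), with adjusted p-values over all 13647 tested probe sets, and the p-values measure the spread between these arrays only. Signals of different probe sets are not set against each other, since their oligonucleotides differ. In sorted cells pooled for 1 array, more RNA per cell and more cells expressing a gene cannot be told apart.

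PUCHI, the AP2/ERF factor, had signals of 85.4 on replicate 1 and 33.5 on replicate 2 at 0 h. The 2 h signals were 1523.7 and 1265.5, and those at 6 h were 6237.1 and 3719.9. Every 2 h value lay above both 0 h values and below both 6 h values, so its levels were ordered 0 h, 2 h, 6 h without overlap. Its place among all probe sets of an array, which needs no scaling, moved from the 43.2 and 30.7 percentiles at 0 h to 94.95 and 94.0 at 2 h, and after 6 h to 99.1 and 98.4. LBD16 read 542.7 and 476.3 at 0 h. After 2 h it read 1920.4 and 2296.3, and after 6 h 1167.2 and 736.8. For this gene both 6 h values lay above both 0 h values and below both 2 h values. Its percentiles were 86.6 and 83.8, then 96.1 and 96.8, then 93.4 and 90.1. LBD29 read 134.2 and 56.5 at 0 h. After 2 h it read 418 and 358.4, and after 6 h 373.3 and 386.1. The 0 h values lay below the other 4, and the 2 h and 6 h values overlapped. Its percentiles were 55.5 and 42.1 at 0 h and between 80.3 and 82.6 on the other 4 arrays. Separation of 2 groups in this way was common among tested probe sets. Both 2 h arrays lay above both 0 h arrays on 22.6% of them, and both 6 h arrays did on 30.4%. Both 6 h arrays lay above both 2 h arrays on 32.1% and below them on 25.3%. The share with all 3 groups in order was not counted. The plot of signals by time shows these courses.

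**Figure D1:**
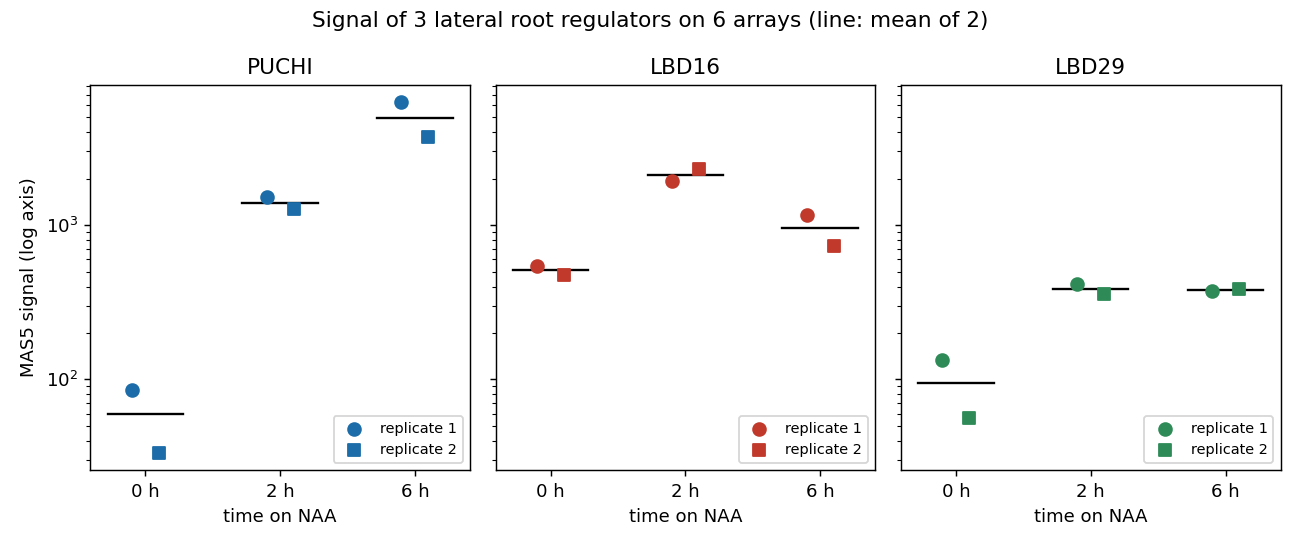
MAS5 signal (log axis) of PUCHI, LBD16 and LBD29 at 0 h, 2 h and 6 h on NAA, with circles for replicate 1, squares for replicate 2 and a line at the mean of the 2 arrays. PUCHI climbs from 33.5 and 85.4 to 3719.9 and 6237.1, LBD16 is highest at 2 h (1920.4 and 2296.3), and LBD29 lies between 358.4 and 418 on all 4 NAA arrays.

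After 2 h on NAA all 3 genes were higher than at 0 h. The mean signal of PUCHI went from 59.5 ± 36.7 to 1395 ± 183 (SD, n = 2 arrays per group). Its log2 change was 4.56 ± 0.43 (SE), with a 95% interval of 3.63 to 5.50 and an adjusted p of 2.15e-04 (limma). Only 9 of the 13647 tested probe sets had a larger rise. LBD16 went from 509.5 ± 47.0 to 2108 ± 266, a log2 change of 2.04 ± 0.33 (interval 1.31 to 2.76, adjusted p = 0.00298). LBD29 went from 95.4 ± 54.9 to 388 ± 42.1, a log2 change of 2.08 ± 0.41 (interval 1.18 to 2.99, adjusted p = 0.00826). Of all tested probe sets 7.26% were called higher at 2 h, and the median change over them was -0.15. On 22.6% of tested probe sets both 2 h arrays lay above both 0 h arrays, so the lack of overlap by itself is common here.

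The rise of PUCHI at 2 h exceeded that of the LBD genes on every pairing of arrays. Within arrays, its log2 change was larger than that of LBD29 by 2.48 on average, with a range of 2.43 to 2.53 over the 4 pairings of a 2 h with a 0 h array. It was larger than that of LBD16 by 2.53 (range 1.74 to 3.31). The changes of LBD16 and LBD29 differed by -0.05, with pairings on both sides of 0 (-0.78 to 0.69). These differences are descriptions, as 2 arrays against 2 cannot give an exact two-sided permutation p below 0.333.

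The 0 h level was the least certain part of these changes for PUCHI and LBD29. No detection calls of the 0 h arrays were analysed here, and on the 1 array with calls (replicate 1 at 2 h) 64.5% of probe sets with a signal of 32 to 64 and 21.2% of those at 64 to 128 were called absent. Whether the 0 h signals of PUCHI lay above background was therefore not tested, and its folds depend on that level. With a pseudocount 4 times larger its log2 change was 4.23 at 2 h and 6.01 at 6 h. Replicate 1 at 0 h read 2.55 times replicate 2 for PUCHI and 2.38 times for LBD29, against 1.14 times for LBD16. At 2 h the ratio of the higher to the lower array was 1.17 to 1.20 for the 3 genes. Gaps as high as those of PUCHI and LBD29 in that direction occurred on 6.96% and 7.84% of tested probe sets. Among probe sets within 0.5 of their log2 level at 0 h they occurred on 18% and 16.2%, and probe sets at these levels read higher on replicate 1 as a group (median gap of 0.40 around PUCHI and 0.44 around LBD29). Without replicate 1 at 0 h the log2 change at 2 h was 5.18 for PUCHI and 2.67 for LBD29, and without replicate 2 it was 3.95 and 1.49, all 4 called. The call of LBD29 at 2 h was lost without replicate 1 at 2 h (adjusted p = 0.0683, limma) or replicate 2 (0.0553), where the other array stands alone and is taken to vary like the other groups.

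After 6 h the genes stood apart. PUCHI had a mean signal of 4979 ± 1780 and a log2 change from 0 h of 6.35 ± 0.43 (interval 5.42 to 7.29, adjusted p = 6.40e-06, limma). A larger rise was seen for 8 of the tested probe sets. LBD29, at 380 ± 9.05, had a change of 2.06 ± 0.41 (interval 1.15 to 2.96, adjusted p = 0.00284). LBD16, at 952 ± 304, had a change of 0.86 ± 0.33, with an interval of 0.14 to 1.59 and an adjusted p of 0.0658, and was not called. Of all tested probe sets 16.8% were called higher at 6 h, against which the 2 of 3 genes called are to be read, and on 30.4% both 6 h arrays lay above both 0 h arrays. The change of PUCHI was 6.97 without replicate 1 and 5.74 without replicate 2 at 0 h, and that of LBD29 was 2.64 and 1.47, all called. LBD16 stayed uncalled without any 1 array, with changes of 0.53 to 1.19.

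From 2 h to 6 h PUCHI rose again, by 1.79 ± 0.43 on the log2 scale (3.46-fold, interval 0.85 to 2.73, adjusted p = 0.0238, limma). It was one of the 3.13% of tested probe sets called higher in that interval, and one of the 32.1% whose 6 h arrays both lay above both 2 h arrays. The call was lost when each array was centred on its median (adjusted p = 0.0510), with no intensity trend in the variance (0.0749) and with arrays split by the brightness of their hybridisation controls as a block (0.0582). It was also lost without replicate 1 or 2 at 2 h (0.0961 and 0.151) and without replicate 1 or 2 at 6 h (0.204 and 0.0530). LBD16 had a change of -1.17 ± 0.33, to 45.2% of its mean signal at 2 h, with an interval of -1.90 to -0.45. Its adjusted p of 0.0501 just missed the threshold, while 5.59% of tested probe sets were called lower and 25.3% had both 6 h arrays below both 2 h arrays. It was called with a pseudocount 4 times larger (0.0436), without the filter (0.0481), with a filter at the 60th percentile (0.0463), in a fit of only the 4 arrays compared (0.0296) and without replicate 1 or 2 at 0 h (0.0372 and 0.0353). It was not called with quantile normalization (0.0730), centring on the medians (0.0760), no trend (0.117) or the block for control brightness (0.0897). Of the 12 other settings 5 called it. Nor was it called without replicate 1 or 2 at 2 h (changes of -1.30 and -1.05) or at 6 h (-1.50 and -0.84). LBD29 had a change of -0.03 ± 0.41, with an interval of -0.93 to 0.88, so a change of nearly 2-fold either way lies within its error. On the same arrays the change of PUCHI exceeded that of LBD16 by 2.97 (2.66 to 3.27 over the pairings) and that of LBD29 by 1.82 (1.40 to 2.24). The change of LBD16 lay below that of LBD29 by 1.15 (pairings from -1.74 to -0.55).

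**Figure D2:**
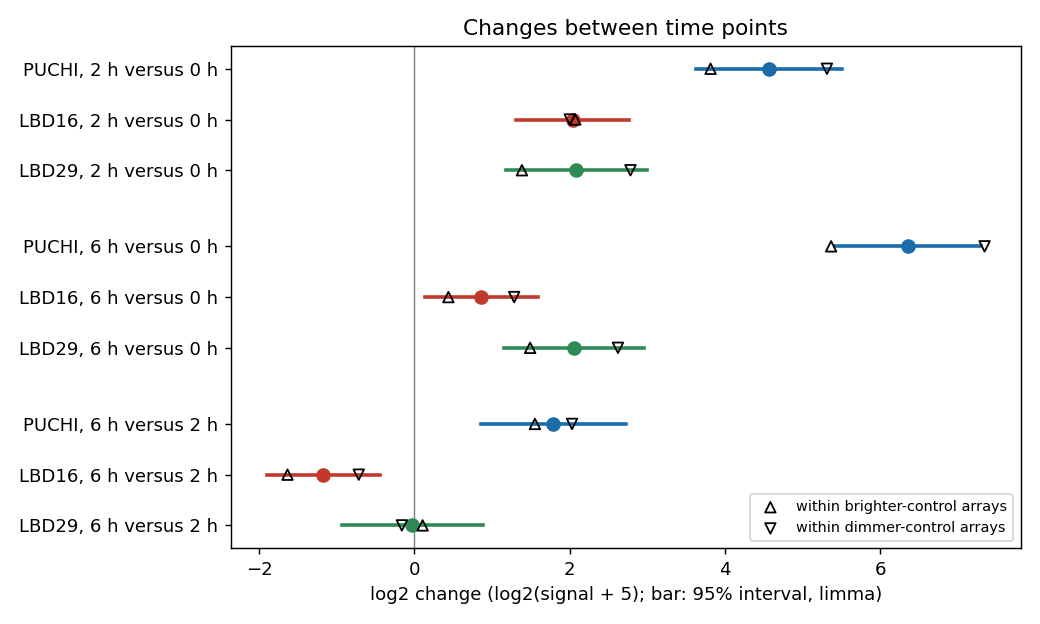
Log2 changes between time points for the 3 genes, with limma's estimate as a filled point and its 95% interval as a bar, and the change within the arrays with brighter and dimmer hybridisation controls as open triangles. The 3 genes share a rise at 2 h, and from 2 h to 6 h the estimates are 1.79 for PUCHI, -1.17 for LBD16 and -0.03 for LBD29.

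The scale decides how the course of PUCHI divides between the intervals. On the log2 scale 71.8% of its change by 6 h was present at 2 h. In signal units 27.1% was, with a gain of 1335 units in the first 2 h and 3584 in the following 4 h. Per hour this was 668 and 896 signal units. LBD29 gained 293 units in the first interval and had a difference of -8.5 units in the second. LBD16 gained 1599 units and then had a difference of -1156, so that 27.7% of its early gain in mean signal was left at 6 h.

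The arrays can be split by their hybridisation controls, bacterial and phage transcripts that are spiked into each sample. In signal units the geometric mean of these controls at 0 h was 13624 for replicate 1 and 2609 for replicate 2. Later replicate 2 was the brighter one at both times, with 6001 and 10425 against 1780 and 2798. The rise of LBD16 at 2 h was alike within both sets of arrays (2.07 in the brighter and 2.00 in the dimmer). That of PUCHI was 3.81 and 5.31, and that of LBD29 was 1.38 and 2.78. Against 0 h, the 6 h values were 5.36 and 7.34 for PUCHI, 1.49 and 2.62 for LBD29 and 0.44 and 1.28 for LBD16. Between 2 h and 6 h both sets gave a rise for PUCHI (1.55 and 2.03) and a lower value for LBD16 (-1.63 and -0.72), and for LBD29 they gave 0.11 and -0.16. The split therefore changed none of the directions of PUCHI and LBD16. The size of the LBD16 rise at 2 h was also kept, while their other sizes differed between the sets.

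The signals of LBD16 stood beside an unusual detection call. Replicate 1 at 2 h is the array for which the authors' detection p-values and calls (present, marginal or absent) were at hand. MAS5 makes these by comparing oligonucleotides that match the transcript with paired ones that carry a mismatch. PUCHI and LBD29 were called present (detection p = 2.44e-04 and 7.32e-04 in the authors' deposited table). LBD16, at a signal of 1920.4, was called absent there with a detection p of 0.0806. On that array 9963 of 22746 probe sets (43.8%) were called absent, and LBD16 had the highest signal of them all. The next highest absent signals were 502.2 and 316.7, and all 877 probe sets brighter than LBD16 were called present or marginal. Of the 469 probe sets within 25% of its signal, LBD16 was the 1 called absent. Calls of the other 5 arrays were not analysed here, so whether the call moves with time was not tested. The changes of LBD16 therefore rest on a probe set that was not called present on the 1 array where this can be read. Values of single oligonucleotides were not analysed here, so the reason for the call was not tested.

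**Figure D3:**
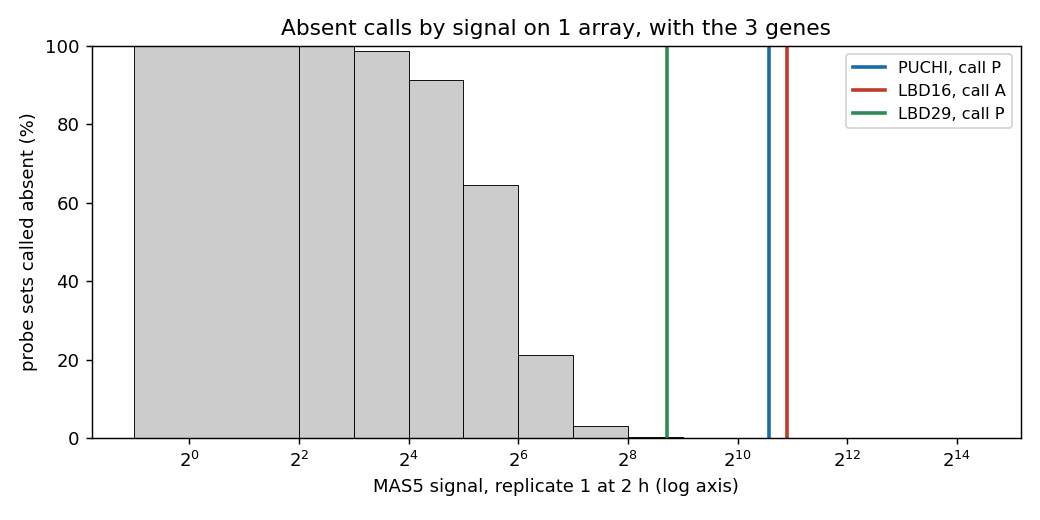
Share of probe sets called absent (bars, percent) by MAS5 signal (log axis) on replicate 1 at 2 h, with lines at the signals of PUCHI (call P, present), LBD16 (call A, absent) and LBD29 (call P). Absent calls fall to 0.201% of probe sets at signals from 256 to 512, and LBD16 at 1920.4 is the 1 absent probe set between 1024 and 2048.

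Across the 6 arrays the log2 profile of LBD29 correlated with that of PUCHI at r = 0.936 and with that of LBD16 at r = 0.766, and PUCHI with LBD16 at r = 0.627. These are descriptions over 6 arrays in 3 groups that share their scaling. The genes most like each member were taken as the 5 with the smallest root mean square difference between log2 profiles centred on their own means, out of 7384 tested loci. Their shared course follows from this choice, and their values are given as a description. For PUCHI these were EXPA4, AT3G01490, AT3G57950, AT1G03820 and TBL36, with differences of 0.42 to 0.69. EXPA4 belongs to the expansins, which loosen cell walls, and TBL36 to a family linked to acetylation of wall polysaccharides. EXPA4 had mean signals of 75.4, 2685 and 5172 at 0 h, 2 h and 6 h, and TBL36 had 160, 3975 and 8007. AT3G01490 and AT3G57950 had means of only 8.9 and 7.3 at 0 h. These lie near the pseudocount of 5, so the log2 profiles of these genes depend on it. Of the 5, AT1G03820 had a log2 change between 2 h and 6 h of 1.79 ± 0.38, and the other 4 had changes of 0.91 to 1.251.

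LBD16 was matched most closely by AT1G19230, AT3G15010, AT1G10380, AT1G05710 and AT1G01225, at differences of 0.18 to 0.31. Their log2 changes were 1.70 to 1.93 at 2 h and -0.57 to -1.26 between 2 h and 6 h, as the choice required. AT3G15010 came nearest to it in the second change (-1.26 ± 0.35). For LBD29 the closest were AT5G61310, AT5G48650, AT1G68360, NRPA2 and AT1G28395, at 0.13 to 0.25. NRPA2 encodes the second largest subunit of RNA polymerase I, which transcribes ribosomal RNA. Its mean signals were 842, 3097 and 3545. The plot of alike profiles shows each set.

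**Figure D4:**
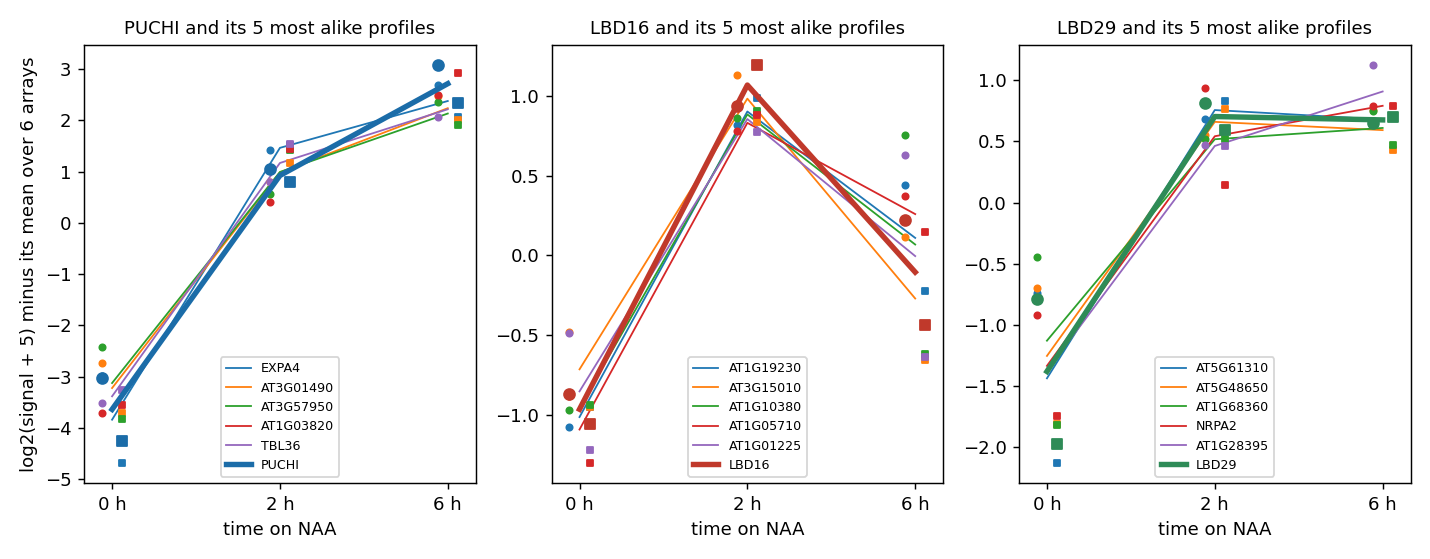
Log2(signal + 5) minus its mean over the 6 arrays, against time on NAA, for PUCHI, LBD16 and LBD29 (thick lines) and the 5 genes most like each (thin lines), with lines through the group means, circles for replicate 1 and squares for replicate 2. The genes near PUCHI have a higher mean at each later time, those near LBD16 have their highest mean at 2 h, and those near LBD29 differ by at most 0.45 between 2 h and 6 h.

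Few other genes of the pathway could be read beside them. Of 158 listed loci in 8 lists, 6 had a named probe set and 4 were tested. The lists of other LBD genes (39 loci), ERF genes (68), auxin receptors with ARF factors (8), auxin transporters (6) and enzymes of very long chain fatty acid elongation (6), a process that PUCHI is known to regulate, had 0 named probe sets and are not analysed here. Of 9 listed Aux/IAA repressors 3 were tested, and 2 rose and 0 fell both at 2 h and at 6 h, with medians of 2.49 and 3.14 against -0.15 and -0.11 over all tested probe sets, of which 7.26% and 16.8% were called higher. IAA29 had mean signals of 366, 4686 and 3495 at 0 h, 2 h and 6 h. Between 2 h and 6 h 0 of these 3 were called (limma), with changes of -0.89 to 0.65, where 3.13% of all tested probe sets were called higher and 5.59% lower. Of 19 listed regulators of founder cells and primordia 1 was tested. This was RALFL34, a peptide gene that acts in lateral root initiation, with a signal of 304 ± 124 at 0 h, 146 ± 37.3 at 2 h and 1446 ± 360 at 6 h. Its change at 2 h was -0.99 ± 0.39 (adjusted p = 0.127, limma) and it rose between 2 h and 6 h by 3.26 ± 0.39 (adjusted p = 4.71e-04). Like PUCHI it was highest at 6 h, without the early rise of the 3 genes. CR4, also on that list and with a named probe set, lay below the filter and was not tested. Its signals were 4.2 ± 0.99 at 0 h, 8.9 ± 1.27 at 2 h and 134.8 ± 25.95 at 6 h. AT5G14650, a polygalacturonase gene listed among reported targets of LBD16, LBD18 and LBD29, also lay below the filter. Its signals were 4.55 ± 3.46, 29.4 ± 5.30 and 24.1 ± 11.2. On replicate 1 at 2 h, 91.2% to 99.9% of probe sets in the signal ranges from 4 to 32 were called absent. Whether its signals, or those of CR4 at 0 h and 2 h, lay above background was not tested.

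Arrays and cells differed in other ways beside these results. Across tested probe sets the replicates correlated at r = 0.870 (0 h), 0.938 (2 h) and 0.920 (6 h). The actin control's 3′ to 5′ ratio, which reflects RNA quality, was 4.48 and 3.84 on the 6 h arrays and 1.37 to 2.98 on the others. The GAPDH ratio was 4.37 and 3.42 against 2.68 to 5.78, and the ubiquitin ratio 8.81 and 10.7 against 5.99 to 9.71, so these controls overlapped between the times. The part of the actin ratio in the 6 h values was not tested. Of the cell type markers listed, 0 of 2 for the pericycle, 0 of 5 for xylem, 0 of 3 for the root cap and 0 of 3 for green tissue had a named probe set, so the labelled cell type was not checked. GSO1, 1 of 4 endodermis markers, had signals of 601 to 829 at first, 553 to 1213 after 2 h and 26.1 to 75.6 after 6 h. The summed signal of both cortex markers was 153 to 174, 62.3 to 128 and 77.8 to 89.9 at those times. That of 2 of 5 epidermis markers was 87 to 119, 35.3 to 65.6 and 73.8 to 156, and that of 1 of 3 phloem markers was 53.8 to 56, 52 to 77.7 and 41.3 to 120. None was listed at 0. On replicate 1 at 2 h, however, 64.5% of probe sets at signals of 32 to 64 and 21.2% at 64 to 128 were called absent. Whether the cortex, epidermis and phloem markers lay above background was not tested. The part of all these markers in the changes of the 3 genes was not tested either.

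Other settings were tried and each array was left out in turn. The rises of PUCHI and LBD16 at 2 h, and of PUCHI and LBD29 at 6 h against 0 h, were called under each of the 12 other settings and without any 1 of the 6 arrays.

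**Figure D5:**
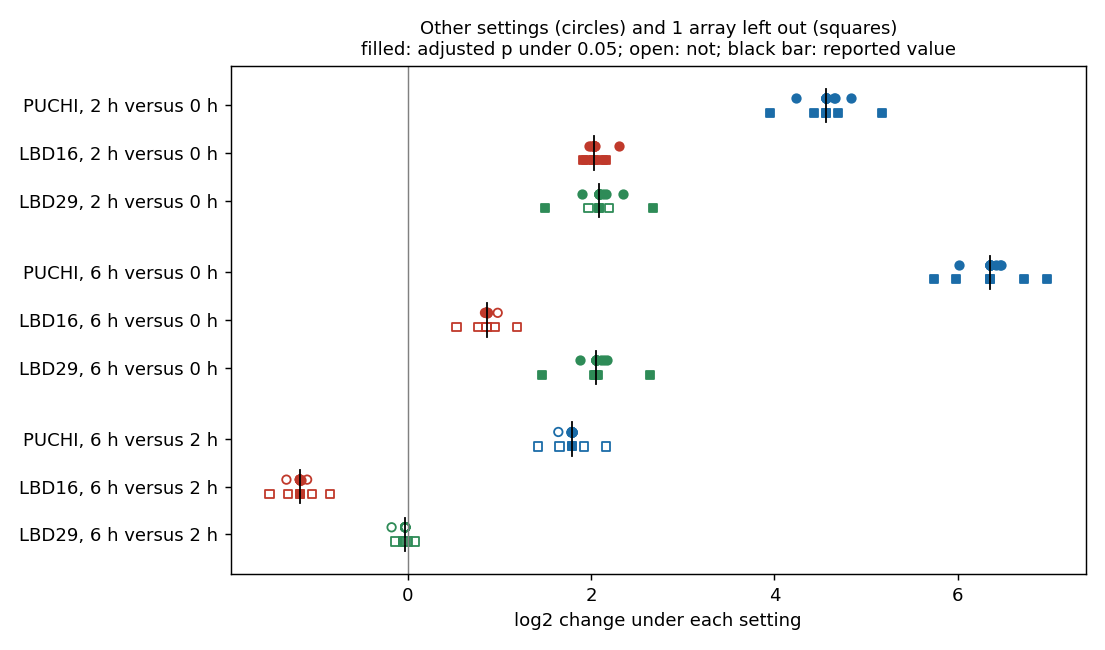
Log2 change of each gene in each comparison under 12 other settings (circles) and with 1 array left out (squares), filled where the adjusted p was under 0.05, with a black bar at the reported value. Symbols for PUCHI at 2 h and 6 h against 0 h stay between 3.95 and 6.97 and filled, while those between 2 h and 6 h include open ones for all 3 genes.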

How the data were processed

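RNA of sorted cells was labelled with biotin from amounts too small to detect, per the labels' protocols, and hybridised to 6 one-colour arrays. The deposited values are signal intensities, 1 per probe set, for which the submitters' processing notes name MAS5, with no version in the sources used here. The mean after trimming 2% at each end was 250.0 on every array. The deposited detection p-values of 1 array were used, and those of other arrays were not analysed here. Of 22810 probe sets 64 controls were left out. Signals were taken as log2(signal + 5), and probe sets whose mean exceeded the 40th percentile (13647) were tested. A single limma fit (version 3.58.1, R 4.3.3) of the 3 group means over all 6 arrays used eBayes with an intensity trend, on 3 residual and 8.26 prior degrees of freedom. Calls needed an adjusted p (Benjamini-Hochberg) under 0.05. The fit was tested on simulated data. Names came from a table of the array's probe sets: 13513 had 1 gene, 503 several, and 13436 matched a TAIR10.1 locus. Arrays have no read depth, and their number limits the precision. The members, lists and tests were chosen with earlier results of these data known. Named were the 3 genes, the 5 genes most like each, and up to 4 called members per list. AT5G14650 and CR4 fall outside this and were added after their values were seen. Samples with the same replicate number deviated together at r = 0.0565, 0.105 and 0.153 between pairs of groups, so the numbers were not taken to pair them.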

Additional observations from a re-analysis of the deposited data

How the results depend on the processing

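Beside the values given with the results, the following moved. With the replicate number as a block LBD16 was called at 6 h against 0 h (0.86, adjusted p = 0.0413, limma) and against 2 h (-1.17, adjusted p = 0.0271), and 2038, 5106 and 1662 probe sets were called at 2 h, at 6 h and between them, against 1553, 4612 and 1190. A larger pseudocount gave -1.16 for LBD16 between 2 h and 6 h. For PUCHI in that interval centring on the medians gave 1.64, and the fits without trend or with a block for control brightness gave 1.79. With 1 array left out changes at 2 h were 3.95 to 5.18 for PUCHI, 1.91 to 2.16 for LBD16 and 1.49 to 2.67 for LBD29. At 6 h they were 5.74 to 6.97, 0.53 to 1.19 and 1.47 to 2.64, and between 2 h and 6 h 1.42 to 2.16, -1.50 to -0.84 and -0.14 to 0.082. The positive value of LBD29 came without replicate 1 at 2 h (0.082). Calls then numbered 473 to 1595 at 2 h, 3026 to 4489 at 6 h and 521 to 1734 between them. Without the trend 976 were called at 2 h, and with only the 4 arrays compared 1849 between 2 h and 6 h. Within the brighter and dimmer arrays the changes were 3.81 and 5.31 for PUCHI and 1.38 and 2.78 for LBD29 at 2 h. At 6 h they were 5.36 and 7.34, 1.49 and 2.62, and 0.44 and 1.28 for LBD16, which had -1.63 and -0.72 between 2 h and 6 h. Some of these fits held fewer arrays, and the cause of the moves was not tested. With 2 arrays a group precision is limited: the 95% interval of LBD29 between 2 h and 6 h ran from -0.93 to 0.88.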
